A study of Rattus norvegicus with 8 samples.

Results

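Immediate early response genes are switched on from factors already present in the cell, without the synthesis of new protein. Signals from growth factors, cytokines, stretch or stress reach them through MAP kinases, and the factors SRF with its ELK partners and CREB then act on their promoters. Their transcripts appear and decay quickly, and most of them encode transcription factors or inhibitors that shut the signal off. In the glomerulus, the capillary tuft that filters the blood, they can be induced in podocytes, endothelial cells and mesangial cells. The genes described here are Fos, Fosb, Jun, Junb and Atf3 (the AP-1 and ATF factors), Egr1 and Nr4a1 (a zinc finger factor and an orphan nuclear receptor), Ier2, and the inhibitors Zfp36 and Dusp1. They were chosen by symbol as well-known members of this response, with earlier results of these data already known. All 10 were measured, by 14 probe sets, out of 14217 genes and 31042 probe sets on the array. Each gene is represented by its probe set with the highest mean, and the other probe sets of Fos, Jun and Dusp1 are given beside it.

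Glomerular RNA of 4 groups was hybridised to Affymetrix Rat Genome 230 2.0 arrays, 2 in every group. The labels call the 2 arrays of a group biological replicates, and each array is taken here as 1 rat. They do not say whether RNA of several rats was pooled. The groups were Dahl rats of 6 weeks, Dahl rats of 4 weeks, SHR rats of 6 weeks and SHR rats of 4 weeks. Dahl (Dahl SS in the labels) is a salt-sensitive strain that becomes proteinuric spontaneously, and SHR is the spontaneously hypertensive rat, which does not become proteinuric. Both are inbred strains that differ at many loci, so a strain difference cannot be tied to a single allele. The methods describe male rats of both strains on a low-salt diet, with glomeruli of the left kidney pulled out magnetically, and no treatment beyond the diet is named. Values are on the log2 scale as deposited, so a difference of 1 is a doubling of signal.

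The defining podocyte genes Nphs1 (11.84 to 12.65) and Podxl (11.55 to 12.25) and the endothelial gene Kdr (11.64 to 12.46) had high signals on all 8 arrays. So did the proximal tubule genes Lrp2 (11.70 to 12.64) and Slc34a1 (12.15 to 13.79), so the samples also held tubular RNA. The medians of the arrays lay between 4.11 and 4.16. The signal of the 3′ beta-actin control over its 5′ control was 2.65 to 2.82 on the log2 scale in Dahl arrays and 3.29 to 3.66 in SHR arrays. That of GAPDH was 0.92 to 1.33 in Dahl arrays and 1.25 to 1.80 in SHR arrays, while that of hexokinase was 0.47 to 1.19 in Dahl arrays and 0.016 to 0.31 in SHR arrays. The strains did not overlap for beta-actin, which was lower in Dahl arrays, or for hexokinase, which was higher, and they overlapped for GAPDH. The hexokinase controls had low signals (5′ from 2.95 to 3.18 and 3′ from 3.14 to 4.23), so their values are uncertain. The part of these controls in the strain differences below was not tested. In bulk RNA, a change in the share of a cell type and a change in RNA per cell cannot be told apart.

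The promoters of 4 members are shown because these genes moved in opposite directions between the strains: Ier2, Dusp1 and Nr4a1 were higher in Dahl rats over both ages and Zfp36 was lower. Each line is the 250 bases before the RefSeq start of the gene in the build GRCr8, read 5′ to 3′ on the strand of the gene, with motif letters in capitals.
Ier2 (chr19:40399123-40399372, plus strand): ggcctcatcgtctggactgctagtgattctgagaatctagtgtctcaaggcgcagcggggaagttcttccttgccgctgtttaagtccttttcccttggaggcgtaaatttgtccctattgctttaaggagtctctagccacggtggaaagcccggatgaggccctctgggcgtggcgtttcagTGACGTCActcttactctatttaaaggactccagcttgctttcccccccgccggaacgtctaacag
Dusp1 (chr10:17184603-17184852, plus strand): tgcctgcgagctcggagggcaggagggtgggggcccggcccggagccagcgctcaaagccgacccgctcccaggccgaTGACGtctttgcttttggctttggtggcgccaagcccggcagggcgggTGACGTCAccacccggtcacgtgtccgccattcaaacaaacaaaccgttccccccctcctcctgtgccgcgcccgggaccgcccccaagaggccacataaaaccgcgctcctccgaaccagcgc
Nr4a1 (chr7:134259888-134260137, plus strand): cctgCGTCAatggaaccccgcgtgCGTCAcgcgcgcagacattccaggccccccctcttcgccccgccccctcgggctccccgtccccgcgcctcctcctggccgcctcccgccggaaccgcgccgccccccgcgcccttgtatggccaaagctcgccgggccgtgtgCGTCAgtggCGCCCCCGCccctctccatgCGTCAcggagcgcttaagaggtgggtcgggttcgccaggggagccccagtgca
Zfp36 (chr1:92799109-92799358, minus strand): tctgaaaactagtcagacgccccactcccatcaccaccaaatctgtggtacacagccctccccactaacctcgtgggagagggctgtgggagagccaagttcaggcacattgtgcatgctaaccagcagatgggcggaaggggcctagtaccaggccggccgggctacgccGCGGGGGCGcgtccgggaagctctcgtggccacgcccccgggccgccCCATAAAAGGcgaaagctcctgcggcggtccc

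Of the 10 members, 7 had an entry among the RefSeq promoters (Fosb, Junb, Egr1, Ier2, Nr4a1, Zfp36 and Dusp1). They were searched on both strands for the CArG box bound by SRF, the full CRE TGACGTCA bound by CREB, its shorter form TGACG (which every full CRE also contains), the AP-1 site TGANTCA, the EGR site GCGNGGGCG and the TATA box TATAAA. A full CRE was in Ier2 and Dusp1, starting 66 and 124 bases before the gene, and in 1.70% of all 27457 promoters. The short form was in 5 of the 7 against 19.0% of all, with 4 separate copies in Nr4a1. CArG boxes were in Egr1 (2 copies) and Zfp36 (starting 32 bases before the gene) against 1.50% of all. The EGR site was in Nr4a1 and Zfp36, 73 and 79 bases before the gene, against 4.53% of all, and the TATA letters were in Fosb and Junb against 13.1%. No member window held the AP-1 letters, which 6.36% of all windows did. These are matches of letters only, and the arrays did not measure binding.

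The comparison of the strains asked which members differed in Dahl glomeruli before and at the age when the strain becomes proteinuric. Over both ages, 7 of the 10 members were higher in Dahl rats, 2 were lower, and Atf3 did not pass the test (limma, adjusted p under 0.05 over all probe sets). The background is high, since 34.7% of all probe sets were called, 10.6% higher and 24.2% lower. After quantile normalization 4740 probe sets were called in place of 10787, and those higher and lower were nearly equal in number (2261 and 2479, in place of 3283 and 7504). The members' median log2 difference was 1.12, against -0.05 over all probe sets. The largest difference was that of Fos, followed by Nr4a1, Egr1, Ier2 and Junb.

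Fos encodes the partner that pairs with JUN proteins to form AP-1. Its log2 values were 9.44 and 9.74 in Dahl rats of 6 weeks and 5.73 and 6.16 in Dahl rats of 4 weeks, against 6.04 and 4.91 in SHR rats of 6 weeks and 3.13 and 3.98 in SHR rats of 4 weeks. The 6-week Dahl rats lay above all other rats and the 4-week SHR rats below all others, while 4-week Dahl rats and 6-week SHR rats overlapped. Over both ages Fos was higher in Dahl rats by 3.25 (SE 0.34, 9.52-fold, adjusted p = 0.00895 from limma). The 4-week SHR signals were low, so the size of the fold is uncertain. A second Fos probe set stayed between 2.35 and 2.44 in all 8 rats, among the dimmest probe sets (the first of 4 equal groups by mean signal, up to 2.60), and did not follow the first. Its log2 difference between the strains was -0.06 (SE 0.017, adjusted p = 0.0472 from limma), the opposite sign. The median log2 difference over all probe sets of that dimmest group was -0.058, so this value does not set the probe set apart.

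Jun encodes the main DNA-binding partner of FOS. Its values were 10.24 and 10.22 in Dahl rats of 6 weeks and 9.56 and 9.65 in Dahl rats of 4 weeks, against 9.95 and 9.96 in SHR rats of 6 weeks and 8.95 and 8.97 in SHR rats of 4 weeks. No groups overlapped, and the order was 6-week Dahl, 6-week SHR, 4-week Dahl and 4-week SHR. The strain difference was 0.46 (SE 0.026, 1.37-fold, adjusted p = 0.00319 from limma), smaller than that of most members but with rats of a group close together. The other Jun probe sets were higher by 0.36 (adjusted p = 0.0294) and 0.62 (adjusted p = 0.00785). In the dimmer of these (6.70 to 7.99), 4-week Dahl and 6-week SHR rats overlapped.

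Junb encodes a JUN protein that can dampen AP-1 activity. It read 6.54 and 7.26 in Dahl rats of 6 weeks and 5.16 and 5.21 in Dahl rats of 4 weeks, against 5.17 and 4.82 in SHR rats of 6 weeks and 4.95 and 4.39 in SHR rats of 4 weeks. Here the 6-week Dahl rats stood alone, and the SHR groups overlapped each other. The strain difference over both ages was 1.21 (SE 0.22, 2.32-fold, adjusted p = 0.0237 from limma).

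Atf3, a stress-induced factor of the ATF family, was the member that did not pass over both ages. It read 5.31 and 6.19 in Dahl rats of 6 weeks and 5.10 and 4.12 in Dahl rats of 4 weeks, against 5.27 and 5.56 in SHR rats of 6 weeks and 2.77 and 2.98 in SHR rats of 4 weeks. Both 4-week SHR rats lay below all others, and the strains overlapped at 6 weeks. Its log2 difference was 1.03 (SE 0.31, adjusted p = 0.0538 from limma). The 4-week SHR signals were little above the dimmest group of probe sets, so the size of any difference from them is uncertain. Fosb, a close relative of Fos, lay between 2.52 and 2.65 in all 8 rats, in the same dimmest group of probe sets. Its 4 Dahl rats were below its 4 SHR rats by 0.076 (SE 0.016, adjusted p = 0.0305), beside a median log2 difference of -0.058 over all probe sets of that group. After quantile normalization between arrays the log2 difference of Fosb was -0.00098 (adjusted p = 0.964), so this call depended on the scaling.

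**Figure D1:**
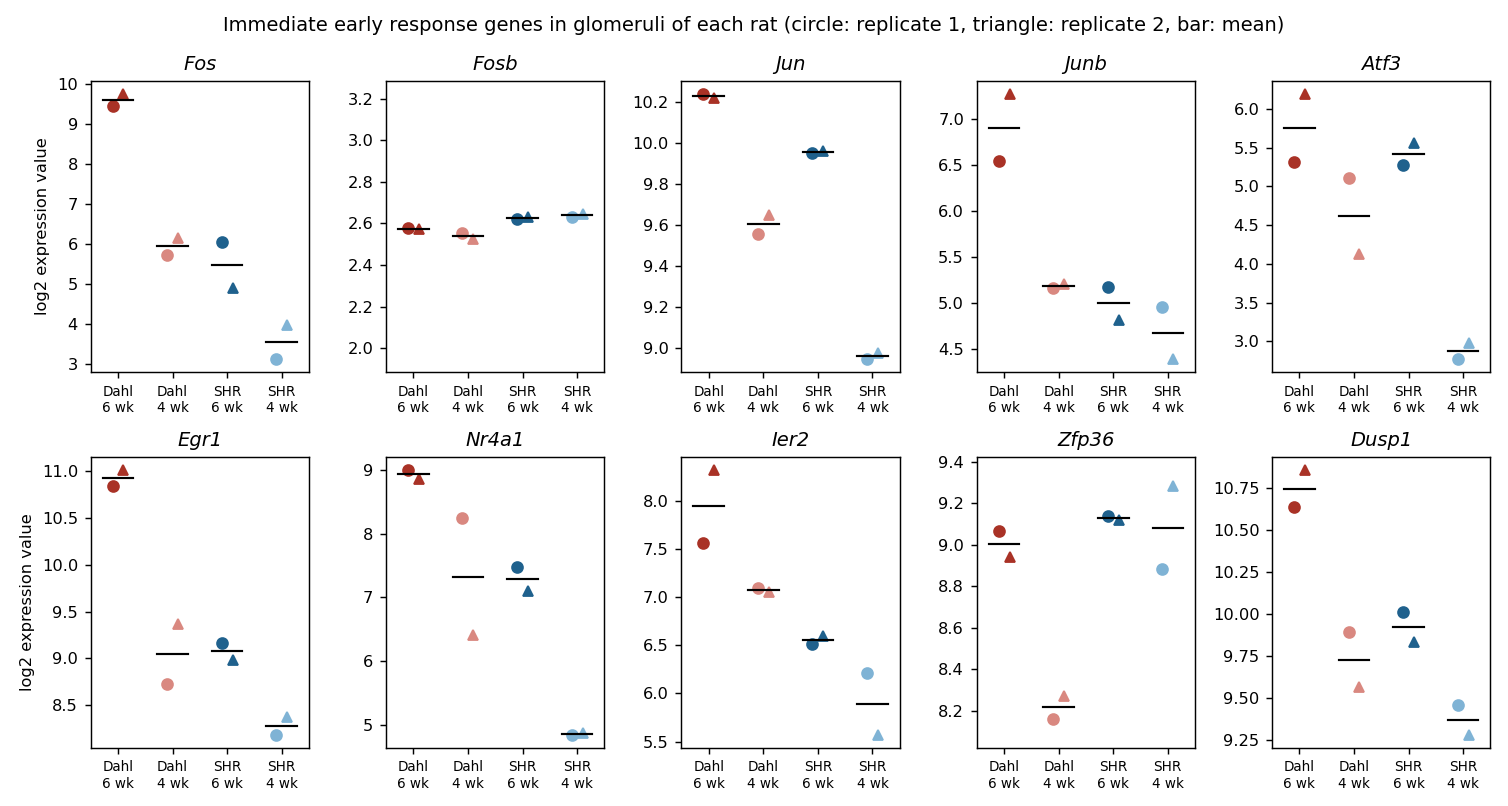
Log2 expression value (vertical axis, with its own range in each panel) of the 10 genes in each rat of the 4 groups (horizontal axis), with the group mean as a bar. Fos lies at 9.44 and 9.74 in the 6-week Dahl rats and no higher than 6.16 in any other rat, whereas Fosb stays between 2.52 and 2.65 throughout.

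Egr1, a zinc finger factor induced by growth factors and stretch, read 10.84 and 11.02 in Dahl rats of 6 weeks and 8.72 and 9.36 in Dahl rats of 4 weeks. In SHR rats it read 9.17 and 8.98 at 6 weeks and 8.18 and 8.37 at 4 weeks. The 6-week Dahl rats were above all other rats, and 4-week Dahl rats overlapped with 6-week SHR rats. Over both ages Egr1 was higher in Dahl rats by 1.31 (SE 0.16, 2.48-fold, adjusted p = 0.0115 from limma).

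Nr4a1 encodes the orphan nuclear receptor NUR77. It read 8.997 and 8.86 in Dahl rats of 6 weeks and 8.24 and 6.41 in Dahl rats of 4 weeks, against 7.48 and 7.11 in SHR rats of 6 weeks and 4.85 and 4.87 in SHR rats of 4 weeks. The 4-week Dahl rats differed from each other by 1.83, the widest gap within a group among the members, and spanned both 6-week SHR rats. The strain difference was 2.05 (SE 0.42, 4.13-fold, adjusted p = 0.0293 from limma).

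Ier2, a nuclear protein gene of the same response, read 7.56 and 8.32 in Dahl rats of 6 weeks and 7.09 and 7.05 in Dahl rats of 4 weeks. In SHR rats it read 6.51 and 6.60 at 6 weeks and 6.21 and 5.57 at 4 weeks. It was the only member with all 4 Dahl rats above all 4 SHR rats, an order that 8.15% of probe sets showed (Fosb showed the reverse order, as did 42.1%). Its strain difference was 1.28 (SE 0.22, 2.44-fold, adjusted p = 0.0216 from limma).

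Of the inhibitors, Dusp1 and Zfp36 went opposite ways. Dusp1, the phosphatase that inactivates MAP kinases, read 10.63 and 10.85 in Dahl rats of 6 weeks and 9.89 and 9.57 in Dahl rats of 4 weeks, against 10.01 and 9.83 in SHR rats of 6 weeks and 9.46 and 9.29 in SHR rats of 4 weeks. It was higher in Dahl rats by 0.59 (SE 0.11, 1.51-fold, adjusted p = 0.0231 from limma), with 4-week Dahl and 6-week SHR rats overlapping. Its second probe set, at 4.74 to 6.90, was higher by 1.02 (adjusted p = 0.0164), and there the 6-week Dahl rats (6.65 and 6.90) stood above a narrow band of all other rats (4.74 to 5.36).

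Zfp36 encodes tristetraprolin, which speeds the decay of mRNAs with AU-rich elements. It read 9.07 and 8.94 in Dahl rats of 6 weeks and 8.16 and 8.27 in Dahl rats of 4 weeks, against 9.14 and 9.12 in SHR rats of 6 weeks and 8.88 and 9.28 in SHR rats of 4 weeks. The 4-week Dahl rats were the low ones, and the other 3 groups lay close together. Over both ages Zfp36 fell by 0.50 in Dahl rats relative to SHR rats (SE 0.099, adjusted p = 0.0278 from limma).

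**Figure D2:**
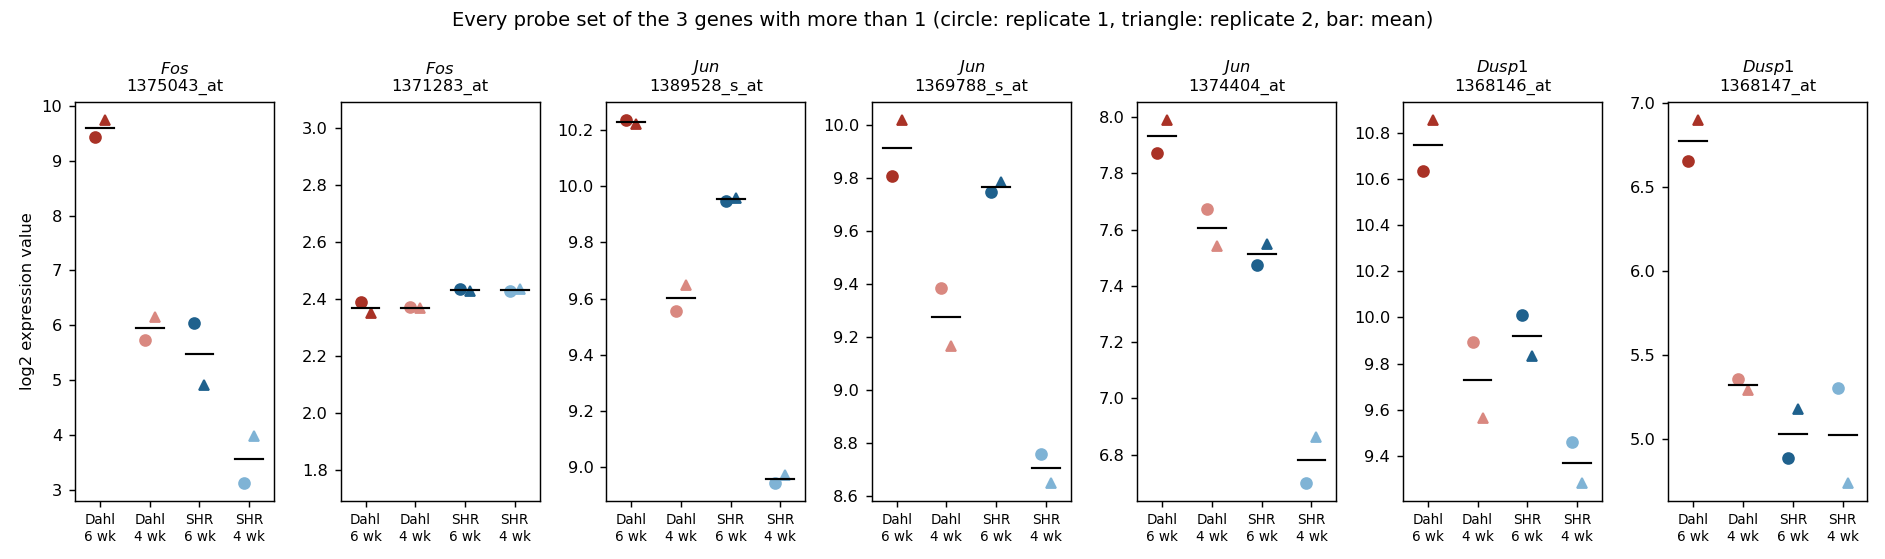
Log2 expression value (vertical axis, with its own range in each panel) of every probe set of Fos, Jun and Dusp1 in each rat of the 4 groups (horizontal axis), with the group mean as a bar. The 3 Jun probe sets and both Dusp1 probe sets are highest in the 6-week Dahl rats, whereas 1 Fos probe set stays between 2.35 and 2.44.

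The calls over both ages rested unequally on single rats. Fos, Jun and Egr1 passed the test whichever of the 8 arrays was left out. Only these 3 were called higher when SHR 4 weeks replicate 2 or either 6-week SHR array was left out. Neither Zfp36 nor Fosb kept its call in every fit that left out an array. Their log2 differences in these fits ran from -0.60 to -0.39 for Zfp36 and from -0.083 to -0.069 for Fosb. When Dahl 6 weeks replicate 2 was left out, the rat with the lowest proximal tubule markers of all, 5 members were called higher and 0 lower.

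At 6 weeks, Fos, Egr1 and Jun were higher in Dahl rats and 0 members were lower, beside 3.28% of all probe sets called (1.65% higher and 1.63% lower). Fos was higher by 4.11 (SE 0.48, 17.3-fold, adjusted p = 0.0324 from limma), Egr1 by 1.85 (SE 0.23, 3.61-fold, adjusted p = 0.0352) and Jun by 0.27 (SE 0.037, adjusted p = 0.0395). Junb (1.91, adjusted p = 0.0514) and Dusp1 (0.82, adjusted p = 0.0592) lay just outside the threshold. The second Dusp1 probe set passed (1.74, SE 0.22, adjusted p = 0.0358 from limma). The other Jun probe sets did not, with 0.15 (adjusted p = 0.337) and 0.42 (adjusted p = 0.0655). Both Dahl rats were above both SHR rats in 7 members (20.1% of probe sets), below them in Fosb and Zfp36 (54.5%), and overlapped with them in Atf3. Without Dahl 6 weeks replicate 2 or any single SHR array, the calls of Fos, Egr1 and Jun were all lost. Fos also lost its call without either 4-week Dahl array, and Jun without Dahl 6 weeks replicate 1. With 1 array left out, the log2 differences ran from 3.55 to 4.68 for Fos, 1.76 to 1.94 for Egr1 and 0.27 to 0.28 for Jun.

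At 4 weeks, Fos and Jun were higher in Dahl rats and Zfp36 was lower, beside 12.0% of all probe sets called (5.63% higher and 6.41% lower). Fos was higher by 2.39 (SE 0.48, 5.23-fold, adjusted p = 0.0429 from limma) and Jun by 0.64 (SE 0.037, 1.56-fold, adjusted p = 0.00471), while Zfp36 had a log2 difference of -0.87 (SE 0.14, adjusted p = 0.0292). Both Dahl rats lay above both SHR rats in 8 members (20.8% of probe sets) and below them in Fosb and Zfp36 (55.6%). Among the 7 members not called were Nr4a1 (2.46, adjusted p = 0.0634) and Atf3 (1.73, adjusted p = 0.0670). The Fos call at this age was lost without any 1 of the 8 arrays (adjusted p from 0.0586 to 0.170), and the Zfp36 call without either 4-week Dahl array or either 6-week SHR array (0.0723 to 0.103). Jun kept its call in all 8 of these fits.

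The ages were then compared within each strain, which asks whether the members moved as Dahl rats reached the age of proteinuria and whether SHR rats of the same ages did so too. These comparisons share arrays with the strain comparisons above. In Dahl rats, both 6-week rats were above both 4-week rats in all 10 members, an order found in 14.1% of probe sets (20.3% had the reverse order). Only Jun passed the test, higher by 0.63 at 6 weeks (SE 0.037, 1.54-fold, adjusted p = 0.0396 from limma), beside 0.0805% of all probe sets called (0.0515% higher and 0.0290% lower). Its other probe sets did not pass, with 0.64 (adjusted p = 0.198 from limma) and 0.32 (adjusted p = 0.377). The call for Jun was lost without Dahl 6 weeks replicate 2 or without any 1 of the SHR arrays (0.0845 to 0.156).

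The other members in Dahl rats are given as values. Fos differed by 3.65 between the ages (95% interval 2.40 to 4.89, adjusted p = 0.142 from limma), Egr1 by 1.89 (1.29 to 2.48, adjusted p = 0.124) and Junb by 1.72 (0.91 to 2.53, adjusted p = 0.236). Nr4a1 differed by 1.60, Atf3 by 1.14, Dusp1 by 1.01, Ier2 by 0.87 and Zfp36 by 0.79, and Fosb by 0.04. Unadjusted p was under 0.05 in 9 of the 10, as it was in 8.76% of all probe sets. The members' median was 1.08, against -0.01 over all probe sets.

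In SHR rats, Jun was again the only member that passed, higher by 0.99 at 6 weeks (SE 0.037, 1.99-fold, adjusted p = 0.00309 from limma), beside 2.42% of all probe sets called (1.50% higher and 0.915% lower). It passed without any 1 array. Both 6-week rats lay above both 4-week rats in 7 members (21.0% of probe sets, with 30.1% in the reverse order), with Fosb, Junb and Zfp36 overlapping. Atf3 differed by 2.54 (95% interval 1.42 to 3.66, adjusted p = 0.0662), Nr4a1 by 2.43 (0.89 to 3.98, adjusted p = 0.143) and Fos by 1.92 (0.68 to 3.16, adjusted p = 0.148), with the low 4-week signals of Atf3 and Fos leaving these sizes uncertain. Egr1 (0.80), Ier2 (0.66), Dusp1 (0.55) and Junb (0.32) had smaller values, and Zfp36 had 0.05. Unadjusted p was under 0.05 in 6 of the 10, beside 15.2% of all probe sets.

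**Figure D3:**
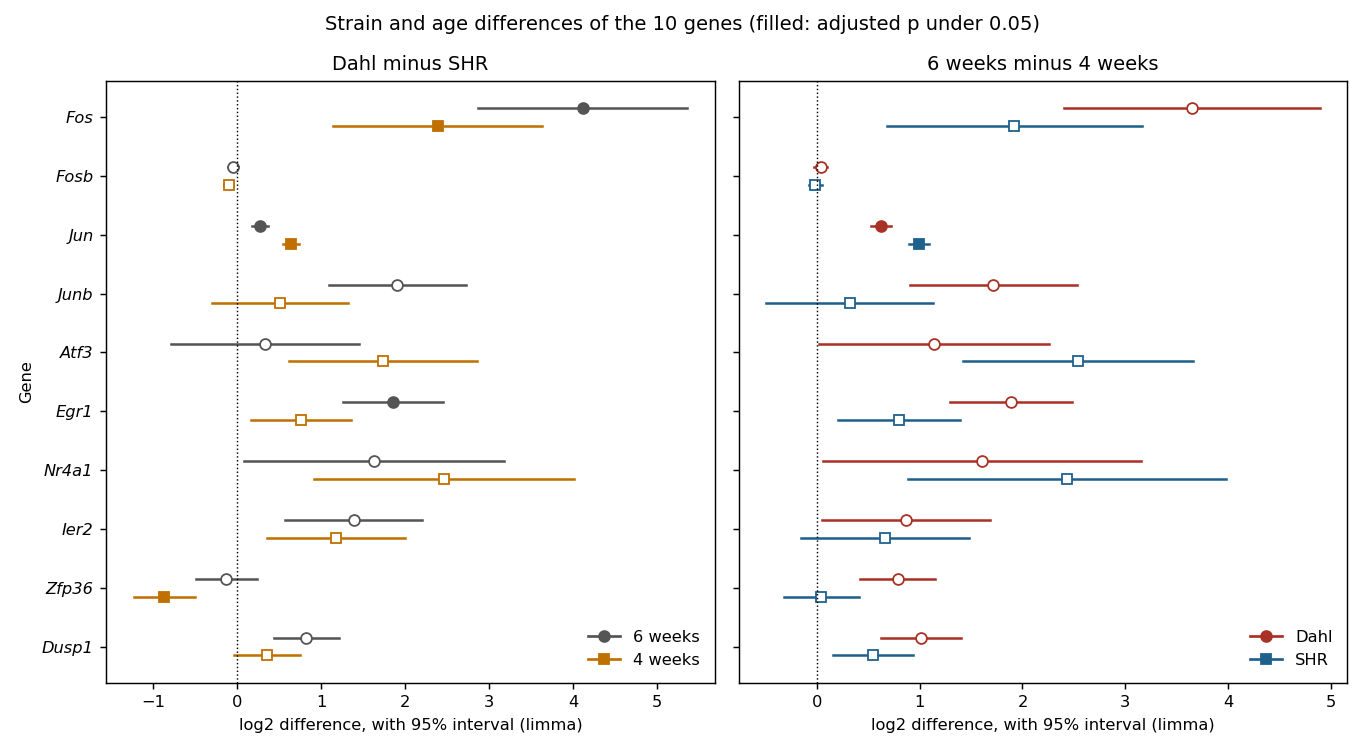
Log2 differences (horizontal axes) of the 10 genes (vertical axis), with 95% intervals from limma; the left panel gives Dahl minus SHR at 6 and 4 weeks and the right panel 6 weeks minus 4 weeks in Dahl and SHR rats, with filled points for adjusted p under 0.05. Fos has the largest strain difference at 6 weeks (4.11), and Jun is the only gene with filled points in both strains of the right panel (0.63 in Dahl rats and 0.99 in SHR rats).

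Whether the age difference itself depended on the strain was tested as an interaction (the Dahl minus SHR difference of 6-week rats minus that of 4-week rats). No member passed (limma, 0 of 10), beside 0.519% of all probe sets (0.235% higher and 0.283% lower). An unadjusted p under 0.05 was found in 4 of the 10, beside 11.0% of all probe sets. The 4 members were Junb (1.39, adjusted p = 0.345), Egr1 (1.09, adjusted p = 0.316), Zfp36 (0.74, adjusted p = 0.267) and Jun (-0.37, adjusted p = 0.0868). The age difference was larger in Dahl rats for Junb, Egr1 and Zfp36, and larger in SHR rats for Jun. Fos had 1.73 with a 95% interval from -0.03 to 3.48, Atf3 -1.40 (-2.98 to 0.18) and Nr4a1 -0.83 (-3.02 to 1.36). The intervals are wide for most members at 2 rats per group, so neither equal nor unequal age differences were shown.

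Seen across all rats, 7 of the 10 members had higher values in both 6-week Dahl rats than in every other rat (6.86% of probe sets), and 7 were lower in both 4-week SHR rats than in every other rat (11.0%). Fos, Jun, Egr1, Ier2, Nr4a1 and Dusp1 did both. The median deviation of the members from their means over the 8 arrays was 0.70 and 1.49 in Dahl rats of 6 weeks and -0.09 and -0.15 in Dahl rats of 4 weeks, against 0.05 and -0.05 in SHR rats of 6 weeks and -0.70 and -1.002 in SHR rats of 4 weeks. Over the 8 arrays, which share these 4 groups, each member's Pearson correlation with the mean of the others was highest for Dusp1 (0.97), Fos (0.95) and Egr1 (0.94). It was -0.04 for Zfp36 and -0.46 for Fosb, which did not follow the rest. Rats of 1 group differed by a median of 0.18 to 0.22 over the members, against 0.13 to 0.23 over the probe sets above the median signal.

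The genes whose values over the 8 arrays most resembled the members' mean deviation were sought among the main probe sets of 9194 genes above the median signal. The 10 most alike were Slc35f6 (r = 0.99), Lima1 (0.98), Ankh (0.98), Clic2 (0.98), Sppl2a (0.98), Dpp6 (0.98), Mfsd12 (0.97), Klf6 (0.97), Parm1 (0.97) and Zmat3 (0.97). Lima1 encodes an actin-binding LIM protein, Ankh a membrane protein that limits mineral deposition, and Dpp6 an accessory subunit of potassium channels. Dpp6 had the widest range of them, with 8.10 and 8.45 in Dahl rats of 6 weeks and 5.22 and 5.65 in Dahl rats of 4 weeks, against 6.02 and 5.79 in SHR rats of 6 weeks and 3.27 and 2.48 in SHR rats of 4 weeks. Klf6 is itself a primary response gene. At the other end stood Mgst1, a microsomal glutathione transferase (r = -0.99), Zfp142 (-0.98) and Edc3, a factor of mRNA decapping (-0.98). These values describe likeness over 8 arrays in 4 groups.

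Relatives of the members moved less uniformly. The counts of this and the later lists over both ages stand beside 10.6% of all probe sets higher and 24.2% lower. Of 12 other AP-1 and ATF genes, 2 were higher in Dahl rats over both ages (Mafk by 0.44 and Jund by 0.31) and 2 lower, Jdp2 (-0.12) and Batf (-0.05), both dim in every rat. The median over these 12 was 0.03. Of 7 other EGR and NR4A genes, Nr4a2 (0.95, SE 0.12, adjusted p = 0.0127 from limma) and Nr4a3 (1.59, SE 0.43, adjusted p = 0.0460) were higher, and Egr4, dim in every rat, was lower (-0.09). Nr4a2 read 6.63 and 6.84 in Dahl rats of 6 weeks and 5.50 and 5.64 in Dahl rats of 4 weeks, against 5.40 and 5.04 in SHR rats of 6 weeks and 5.02 and 5.35 in SHR rats of 4 weeks. Its 6-week Dahl rats stood furthest above the others, as in Junb. Unlike in Junb, both 4-week Dahl rats also lay above every SHR rat. All Dahl rats were thus above all SHR rats, an order that 8.15% of probe sets showed. Egr2 and Egr3, the nearest relatives of Egr1, did not pass (0.05 and -0.03). Egr3 was dim in every rat (2.23 to 2.31), and Egr2 lay below the medians of the arrays (2.87 to 3.72). These values therefore say little about whether the 2 genes differed.

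Of 32 other primary response genes measured, 11 were higher in Dahl rats over both ages and 3 lower, with a median of 0.25. Tnfaip3, an inhibitor of NF-kappaB signaling, was higher by 1.02 (SE 0.094, adjusted p = 0.00769 from limma), the flow-responsive factor Klf2 by 0.35 (SE 0.039, adjusted p = 0.00995) and Klf6 by 0.59 (SE 0.067, adjusted p = 0.0101). Ptgs2, which encodes the inducible cyclooxygenase COX-2, was higher by 1.81 (SE 0.18, adjusted p = 0.00826). It read 7.16 and 7.28 in Dahl rats of 6 weeks and 8.18 and 8.23 in Dahl rats of 4 weeks, against 6.35 and 5.60 in SHR rats of 6 weeks and 5.73 and 5.93 in SHR rats of 4 weeks. Its age difference in Dahl rats was -0.98 (adjusted p = 0.383), the opposite sign to all 10 members. The age differences were above 0 in both strains in 9 of the 10 members and in 17 of these 32 genes.

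**Figure D4:**
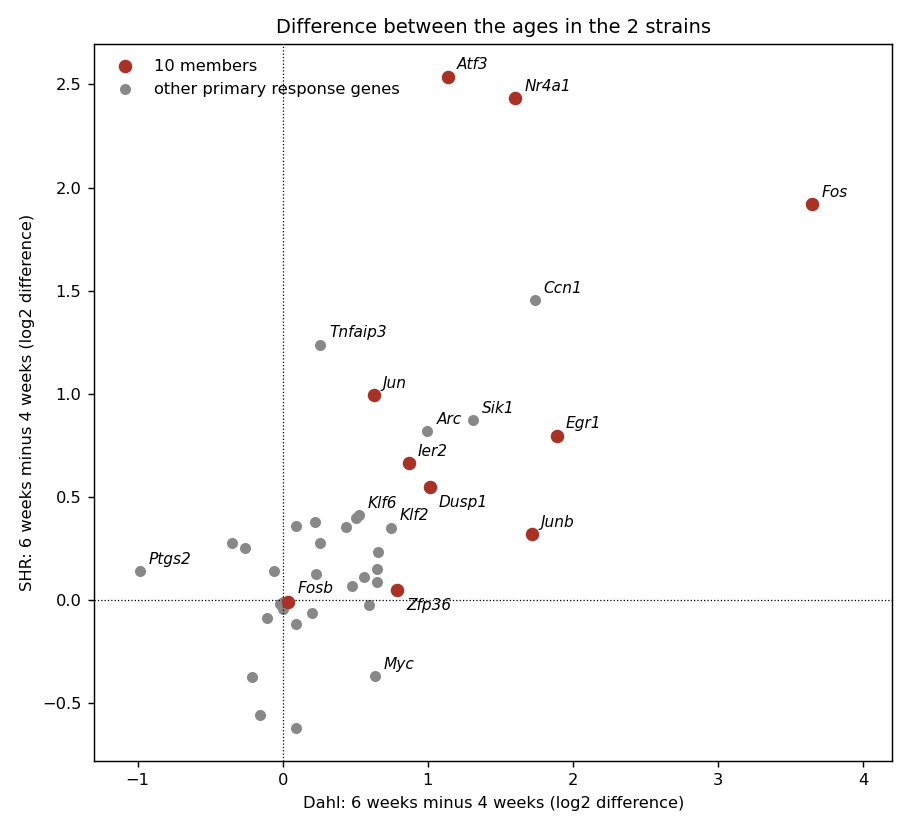
Difference between 6 and 4 weeks (log2) in Dahl rats (horizontal axis) and in SHR rats (vertical axis) for the 10 members and 32 other primary response genes, with labels on the members, on 5 genes named by p and on those beyond 0.9 in either strain, which were labelled after their values were seen. Of the members, 9 lie above 0 in both strains, and Ptgs2 lies at -0.98 in Dahl rats.

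Among 12 other dual-specificity phosphatases and feedback inhibitors, 4 were higher over both ages and 0 lower (limma; median 0.03). They were Dusp14 (1.16), Spry4 (0.60), Zfp36l2 (0.57) and Dusp6 (0.49), a phosphatase of ERK. Of 15 upstream kinases and factors, 5 were higher and 0 lower (median 0.20). Creb1, which encodes the factor of the CRE, was higher by 1.75 (SE 0.18, adjusted p = 0.00837), the SRF partner gene Elk3 by 1.10 (SE 0.13, adjusted p = 0.0112), Rps6ka5 by 0.77 and Mapkapk2 by 0.48. Creb1 read 7.94 and 8.60 in Dahl rats of 6 weeks and 8.30 and 8.43 in Dahl rats of 4 weeks, against 6.78 and 6.48 in SHR rats of 6 weeks and 6.64 and 6.39 in SHR rats of 4 weeks. It thus separated the strains at both ages and did not separate the ages. Of 12 secondary targets and injury genes, 5 were higher, among them Spp1 (2.14), Ccl2 (1.55), Timp1 (1.08) and Lcn2 (1.05), and 3 lower (median 0.52). The lower ones were Il6 (-0.11), Lif (-0.07) and Cxcl2 (-0.05), all dim in every rat.

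Some cell markers moved with the members. Of 14 leukocyte markers, 6 were higher and 4 lower in Dahl rats over both ages, beside 10.6% and 24.2% of all probe sets. In SHR rats 5 of these markers were higher and 0 lower at 6 weeks than at 4 weeks, beside 1.50% and 0.915%. Their median deviation was 0.40 and 0.87 in Dahl rats of 6 weeks and -0.05 and -0.02 in Dahl rats of 4 weeks, against 0.47 and 0.25 in SHR rats of 6 weeks and -0.86 and -0.76 in SHR rats of 4 weeks. Aif1, a macrophage gene, read 7.70 and 8.27 in Dahl rats of 6 weeks and 6.97 and 6.60 in Dahl rats of 4 weeks, against 7.41 and 7.07 in SHR rats of 6 weeks and 3.88 and 3.57 in SHR rats of 4 weeks. As with the members, the 4-week SHR rats were the lowest, and the macrophage gene Mrc1 instead was lower in Dahl rats (-1.76, SE 0.21, adjusted p = 0.0106 from limma). The pan-leukocyte gene Ptprc (4.35 to 7.45) and the macrophage gene Cd68 (1.76 to 5.79) were also lowest in the 4-week SHR rats. The part of leukocytes in the members' values was not tested.

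Of 16 proximal tubule markers, 1 was higher and 3 lower in Dahl rats (median -1.13), beside 10.6% and 24.2% of all probe sets. Their deviation was -0.15 and -1.98 in Dahl rats of 6 weeks and 0.18 and -0.04 in Dahl rats of 4 weeks. In SHR rats it was 0.26 and 0.48 at 6 weeks and 0.75 and 0.91 at 4 weeks. The rat at -1.98 was Dahl 6 weeks replicate 2. In its pair, 6 of the 10 members were higher in that rat and 4 lower, and in the other groups replicate 2 had the higher value in 4 to 7 of the 10. Of 12 distal nephron and collecting duct markers, 0 were higher and 4 lower (limma; median -0.81). Among the 12 markers of mesangial and smooth muscle cells, 8 were higher and 0 lower (median 0.88), and of 11 podocyte and 11 glomerular endothelial markers, 5 each were higher and 0 lower (medians 0.48 and 0.38). Of 8 parietal epithelial markers, 1 was higher and 2 lower. The part of this makeup in the members' values was not tested.

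Heat shock and hypoxia genes respond to stress on cells and tissue. Genes of both lists differed between the strains in both directions, beside 10.6% of all probe sets higher and 24.2% lower. Of 15 heat shock genes, 5 were higher and 2 lower in Dahl rats over both ages (median 0.14). They included the small heat shock genes Cryab (1.02) and Hspb1 (0.96), Hspa5 (0.50), which encodes a chaperone of the endoplasmic reticulum, and Dnajb4 (0.31). Their deviation was -0.10 and 0.21 in Dahl rats of 6 weeks and 0.20 and -0.03 in Dahl rats of 4 weeks, against 0.0002 and 0.22 in SHR rats of 6 weeks and -0.19 and -0.23 in SHR rats of 4 weeks. The 6-week and 4-week Dahl rats overlapped in this measure, whereas the 4-week SHR rats were again the lowest. At 4 weeks the median log2 difference of the heat shock genes between the strains was 0.53 (11 of 15 positive), beside 0.70 for the members. Of the 15 genes, limma called 3 higher and 0 lower, beside 5.63% and 6.41% of all probe sets. At 6 weeks the median was -0.02 (0 called, beside 3.28%), and 1.11 for the members. With age the median of the heat shock genes was -0.13 in Dahl rats and 0.31 in SHR rats (12 of 15 positive, 1 called, beside 2.42%). For the interaction it was -0.36 (1 of 15 positive, 0 called). Of 16 hypoxia response genes, 2 were higher, Egln3 (2.88) and Adm (0.96), and 4 lower, among them Ddit4 (-0.95) and Bnip3 (-0.996), with a median of -0.05. Their median deviation lay between -0.09 and 0.12 in all 8 rats, but it is a median over genes that moved in opposite directions. Single genes varied far more, as Egln3 did from 3.57 to 7.86 and Ankrd37 from 4.86 to 7.69. The part of tissue handling in the members' values was not tested.

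**Figure D5:**
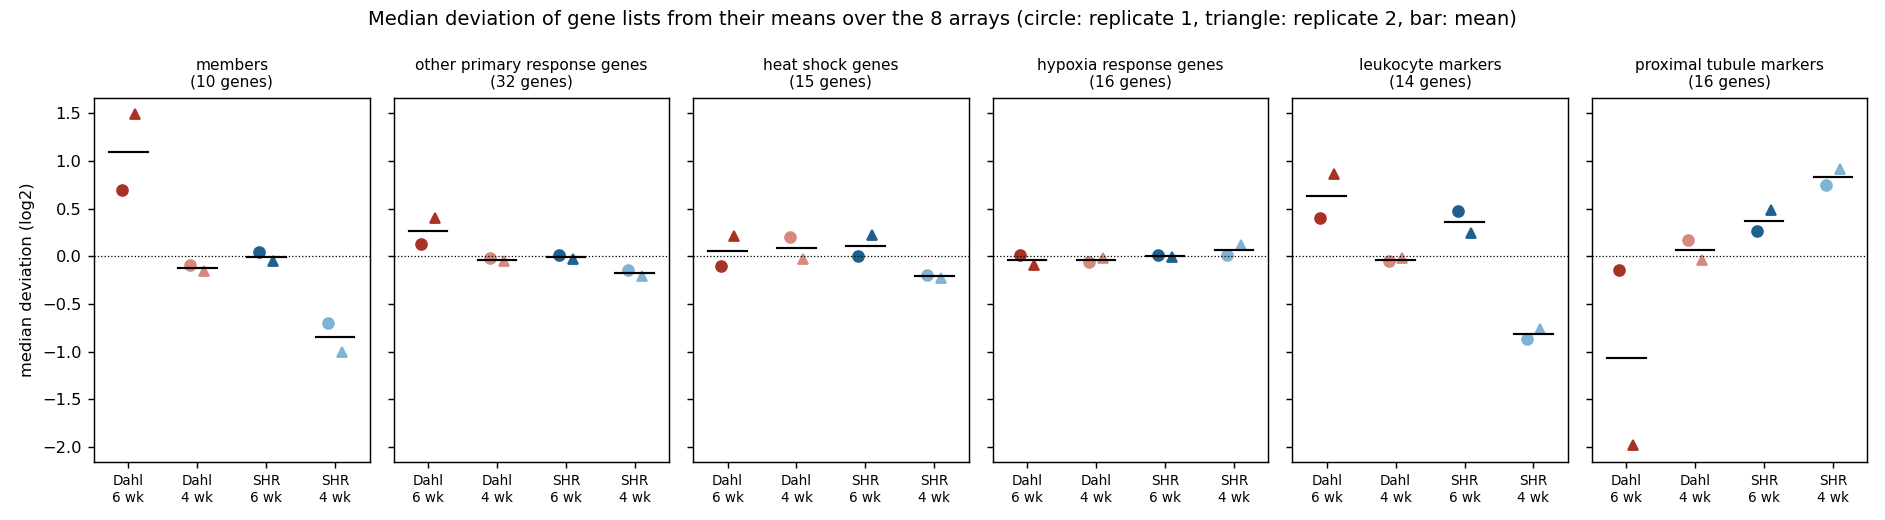
Median deviation of 6 gene lists from their means over the 8 arrays (vertical axis, log2) in each rat of the 4 groups (horizontal axis), with the group mean as a bar. The members lie at 0.70 and 1.49 in 6-week Dahl rats and at -0.70 and -1.002 in 4-week SHR rats, while the hypoxia response genes, some higher and some lower in Dahl rats, have medians between -0.09 and 0.12.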

How the data were processed

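Glomerular RNA of 6-week and 4-week Dahl and SHR rats was hybridised to 8 arrays, 2 per group, each taken as 1 rat. The authors deposited log2 values, already normalized and reduced to 1 value per probe set, and these were tested with no further step. The submitters' processing notes name RMA and GCRMA, without saying which method gave the table. The methods treat low signals differently, so small differences of dim probe sets are uncertain.

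Of 31099 probe sets, 57 controls were left out. The platform annotation named 1 gene for 20826 probe sets, several for 436 (given no name) and none for 9780. Differences were tested across all 31042 probe sets with limma 3.58.1 in R 4.3.3 (4 group means, lmFit and eBayes, Benjamini-Hochberg adjustment, threshold 0.05), checked on simulated data. The replicates are labelled as biological replicates and were taken as separate rats. The number of arrays limits the precision.

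The members and gene lists were chosen with earlier results of these data known. Named genes are all members, up to 4 genes per list with the smallest p for the strain difference or the interaction, and the 10 most and 3 least alike genes; others were named after their values were seen. Promoters come from RefSeq (GRCr8). Alternatives were an intensity trend, quantile normalization, median centring, brighter probe sets only, a replicate block, an additive model, only the groups compared, each array left out, other probe sets, and the methods' t-test.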

Additional observations from a re-analysis of the deposited data

How the results depend on the processing

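With 2 rats per group, the number of members called depended on how the spread was estimated, while directions were stable apart from those given here. For the strain difference, limma called 7 members higher and 2 lower over both ages, 2 higher and 1 lower at 4 weeks, and 3 higher and 0 lower at 6 weeks. With age it called 1 higher in Dahl rats and 1 in SHR rats. An intensity trend with robust variance called 6 higher and 2 lower at 4 weeks, 5 higher at 6 weeks, 0 with age in Dahl rats and 2 with age in SHR rats. Over all 31042 probe sets it called 2518 higher and 7616 lower at 4 weeks and 1739 higher at 6 weeks. With age it called 20 of them higher in Dahl rats and 435 in SHR rats. Testing only brighter probe sets, which leaves out Fosb and tests fewer genes, gave 5 higher at 4 weeks, 5 at 6 weeks, 2 with age in Dahl rats and 4 with age in SHR rats, and 1 lower over both ages. Of the 15521 probe sets tested, 2027, 992, 28 and 786 were higher in these comparisons, and 1824 lower over both ages. Using only the arrays of the groups compared gave 1, 0, 0 and 3 higher for the same comparisons, and 0 lower at 4 weeks. Over all probe sets it gave 459, 2, 0 and 355 higher, and 302 lower at 4 weeks. Quantile normalization gave 1 lower over both ages and 1 higher at 4 weeks, median centring 2 lower at 4 weeks, and the additive model 1 lower over both ages. Over all probe sets these 4 counts were 2479, 1406, 2738 and 9068. The mean of all probe sets of a gene gave 0 higher with age in Dahl rats, beside 15 of 31038 probe sets. The methods' t-test, adjusted over all probe sets, called 1 member higher and 1 lower over both ages and 0 in each of the other 4 comparisons. Over both ages it called 12019 of all 31042 probe sets. Unadjusted, at the threshold in the methods, it called 3, 3 and 7 members for the strain difference (all rats, 4 weeks, 6 weeks). Beside these stood 15388, 9750 and 9192 of all 31042 probe sets. With age it called 6 and 5 members unadjusted (Dahl, SHR), beside 1374 and 3947 probe sets. The cause of these changes was not tested.

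Leaving out 1 array at a time gave 3 to 7 members higher and 0 to 2 lower over both ages, 1 to 3 higher and 0 to 1 lower at 4 weeks, 0 to 4 higher at 6 weeks, 0 to 1 higher with age in Dahl rats and 1 to 2 in SHR rats, and 0 for the interaction. Over all probe sets, the count over both ages of 10787 ranged from 2286 to 11471. The count at 4 weeks was 3738 with limma, 10134 with the intensity trend and 2028 with the replicate block, and that at 6 weeks 1017, 8488 and 339.

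The labels link same-numbered rats of different groups by the number only, and whether they shared any handling is not stated. The correlations of their deviations from the group means ran from -0.23 to 0.24, which cannot settle this. With the replicate block, 1 member was called lower over both ages, 1 higher and 0 lower at 4 weeks, 0 higher at 6 weeks and 0 with age in Dahl rats, and 5598 probe sets in place of 10787 over both ages.

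These values changed sign. The dim Fos probe set gave -0.061 over both ages, -0.060 at 4 weeks, -0.062 at 6 weeks, -0.00084 with age in Dahl rats and -0.0020 for the interaction. Quantile normalization gave Fosb 0.022 at 6 weeks. With 1 array left out, Atf3 at 6 weeks ran from -0.10 (without Dahl 6 weeks replicate 2) to 0.77, and Zfp36 with age in SHR rats from -0.15 (without SHR 4 weeks replicate 1) to 0.25. The interaction of Ier2 ran from -0.17 (Dahl 6 weeks replicate 2 left out) to 0.58, with -0.11 when SHR 4 weeks replicate 1 was left out, and that of Nr4a1 from -1.75 to 0.087 (without Dahl 4 weeks replicate 1). Of these results, only the strain differences of Fos had passed the test, with its brighter probe set.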
